A study of Homo sapiens with 3 samples.

Results

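The genes described here are the 56 protein-coding genes whose symbol starts with EIF1, EIF2, EIF3, EIF4, EIF5 or EIF6, out of 19866 protein-coding genes of the RefSeq table for hg38. Membership went by symbol, so the group also takes in relatives with another role, such as the eIF2 kinases (EIF2AK1 to EIF2AK4), the eIF4E-binding proteins and EIF4A3. The family itself was chosen with earlier results of these data known. Chromatin immunoprecipitation sequencing asked where VCP, an ATPase that pulls ubiquitin-tagged proteins out of complexes, binds along the genome of HCT116, an established line of human colorectal cancer cells. All cells overexpressed Flag-tagged VCP, and 1 library each was made with an antibody to VCP, with an antibody to Flag and from input. The VCP antibody carries the Abcam label and the Flag antibody the CST label. The labels name no cells without the tagged protein, and no replicate libraries were analysed here. Every comparison below is therefore a description of 2 peak lists with no test between conditions. The input library has no peak list among the files used here.

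Translation initiation is the step at which a ribosome is loaded onto an mRNA and set on its start codon. The eIF2 complex brings the initiator tRNA, and eIF2B, its nucleotide exchange factor, recharges it after each round. Stress kinases phosphorylate eIF2, and phosphorylated eIF2 blocks eIF2B. The eIF3 complex is a large scaffold on the small ribosomal subunit. Cap-binding eIF4E, the scaffold eIF4G and the RNA helicase eIF4A recruit the mRNA, while eIF1, eIF1A, eIF5 and eIF5B act in choosing the start codon and joining the large subunit. The genes of these core factors are active in nearly all growing cells. Expression was not measured here.

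A gene counted as marked when the summit of a listed peak lay within 1 kb of either of its outer ends. Fold enrichment is the authors' value for a peak, and reads are the fragments piled at its summit, recovered from the fold and the p-value of that peak. Both lists rested on few reads. Peaks at the ends of all protein-coding genes had a median of 10 reads in the VCP list (n = 395 peaks) and 12 reads in the Flag list (n = 2027 peaks). At the lowest local background, 1.74 reads for VCP and 1.85 for Flag, no listed peak had fewer than 7 reads. A gene with no listed peak may therefore hold signal below that limit. The intervals given for reads are exact 95% Poisson intervals and cover counting error only, since copies made by PCR are not separate molecules.

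Of the 56 initiation factor genes, 2 had a VCP peak at an end (EIF2B4 and EIF4A2), which is 3.57% against 2.34% of all protein-coding genes. A Flag peak stood at 7 of the 56, namely EIF2B4, EIF3A, EIF3B, EIF4A3, EIF4E2, EIF1B and EIF1AD, which is 12.5% against 11.7% of all protein-coding genes. Both shares lay near the background, so these counts alone set the family apart in neither list. EIF2B4 was the 1 gene marked in both lists, and 0.987% of all protein-coding genes were marked in both. By factor, 1 of 15 EIF2 genes, 0 of 14 EIF3 genes, 1 of 16 EIF4 genes and 0 of the 11 others had a VCP peak. A Flag peak stood at 1 of the 15 EIF2 genes, 2 of the 14 EIF3 genes, 2 of the 16 EIF4 genes and 2 of the 11 others. The remaining 48 genes had no peak at an end in either list.

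**Figure D1:**
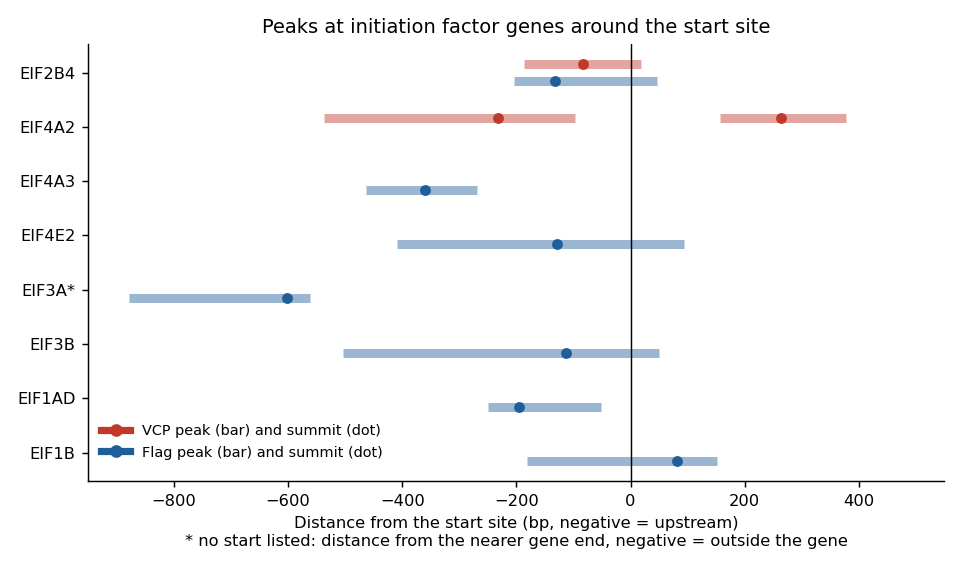
Position of each peak (bar) and its summit (dot) at the 8 marked initiation factor genes, on an axis in bp from the start site, with VCP peaks in red and Flag peaks in blue. EIF2B4 alone carries a peak of each list, EIF4A2 has 2 VCP peaks on either side of its start, and EIF3A is drawn from its nearer gene end because its start was not listed.

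Within the eIF2 and eIF2B genes, EIF2B4 was marked in both lists at 1 place. It encodes the delta subunit of eIF2B, part of the subcomplex that senses phosphorylated eIF2, and lies on the minus strand at chr2:27364352-27370338. The VCP peak there (chr2:27370320-27370525) had its summit 83 bp upstream of the start, with 14 reads (7.65 to 23.5) over a background of 2.17 and a fold enrichment of 4.73. In the Flag list the peak (chr2:27370292-27370543) had its summit 133 bp upstream, with 20 reads (12.2 to 30.9) over a background of 2.13 and a fold enrichment of 6.70. The summits were 50 bp apart, and all 206 bp of the VCP peak fell inside the Flag peak. Both peaks were near the top of their lists by -log10 q: the VCP peak ranked 39 of 1803 and the Flag peak 56 of 5692. Between EIF2B4 and its neighbour SNX17, a sorting nexin gene of endosomes, lie 277 bp. The VCP summit was 195 bp and the Flag summit 145 bp from the nearer end of SNX17, so both summits lay closer to EIF2B4 and in the stretch between the genes.

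That stretch is shown because it is the 1 place where both antibodies gave a peak at an initiation factor gene. It is the 250 bases before the EIF2B4 start (chr2:27370339-27370588, minus strand, GRCh38.p14, from RefSeq), printed 5′ to 3′ so that the start site follows the last base, and capitals mark the letters of motifs searched for.
EIF2B4: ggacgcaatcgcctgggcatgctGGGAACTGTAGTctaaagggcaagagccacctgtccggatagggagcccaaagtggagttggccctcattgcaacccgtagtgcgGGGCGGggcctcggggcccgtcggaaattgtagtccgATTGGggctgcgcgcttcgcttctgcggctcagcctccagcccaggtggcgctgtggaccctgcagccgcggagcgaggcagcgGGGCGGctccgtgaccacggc
Counted from the start site, the first GGGCGG (a Sp1 box) runs from -142 to -137, next to the Flag summit at -133. The reversed CCAAT box runs from -105 to -101, between the Flag summit and the VCP summit at -83. A further GGGCGG runs from 0 to 5, past the printed bases. GGGCGG is in 58.3% and CCAAT in 36.4% of the promoters of all protein-coding genes. Whether motifs lie closer to summits than elsewhere was not tested. The first capitals are a core of the ZNF143 site, with 1 free base, which runs from -227 to -216 on the opposite strand and lies outside both peaks. That pattern was searched only after the letters had been read. It occurs in 1.24% of the promoters of all protein-coding genes and in 1 of 47 initiation factor promoters, that of EIF2B4.

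The other eIF2B subunits had no peak at an end, and neither did the eIF2 subunits (EIF2S1, EIF2S2, EIF2S3 and EIF2S3B), the 4 eIF2 kinases, EIF2A or EIF2D. EIF2B3, the gamma subunit, held a Flag peak deep in its body, 96496 bp downstream of the start (fold enrichment 4.21, 11 reads, 5.49 to 19.7). For EIF2B1 the nearest Flag summit lay 18408 bp from a gene end, and for the kinase gene EIF2AK1 it lay 12894 bp away. Reads from EIF2S3 and its copy EIF2S3B, or from EIF3C and EIF3CL, may map to both members of a pair, and how the authors treated such reads is not given in the sources used here.

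Among the EIF4 genes EIF4A2 was marked by VCP alone. It encodes a helicase of the cap-binding complex, a close relative of EIF4A1, and lies on the plus strand at chr3:186783577-186789897. Its stronger VCP peak (chr3:186783733-186783954) had a summit 264 bp downstream of the start, inside the gene, with 14 reads (7.65 to 23.5) over a background of 1.94. At a fold enrichment of 5.10 it ranked 18 of 1803 VCP peaks by fold and 23 by -log10 q (2.67). A weaker VCP peak (chr3:186783039-186783480) lay 232 bp upstream of the start, with 10 reads (4.80 to 18.4) over 2.997, a fold enrichment of 2.75 and a -log10 q of 0.105. The summits were 496 bp apart, with 252 bp between the peaks. No Flag peak was listed near: the closest Flag summit lay 23056 bp from the stronger VCP summit. The gene hosts several small nucleolar RNA genes in its body, and the nearest of them, SNORD2, began 955 bp from the inner summit.

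The 250 bases before the EIF4A2 start (chr3:186783327-186783576, plus strand, GRCh38.p14, from RefSeq) are shown as the upstream part of the only initiation factor promoter with VCP peaks and no Flag peak. The weaker summit falls in them, and capitals mark the only motif match.
EIF4A2: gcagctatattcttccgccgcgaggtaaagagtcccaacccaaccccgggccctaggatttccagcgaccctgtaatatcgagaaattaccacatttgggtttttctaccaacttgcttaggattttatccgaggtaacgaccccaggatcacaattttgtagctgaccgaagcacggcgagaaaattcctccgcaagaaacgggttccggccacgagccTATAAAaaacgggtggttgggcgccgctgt
TATAAA, the TATA box, runs from -30 to -25. Of the 47 initiation factor promoters, 2 held these letters (EIF4A2 and EIF4EBP3, 4.26%), against 9.75% of the promoters of all protein-coding genes. With 52.3% G and C, the EIF4A2 window was the lowest of the 7 marked genes with a listed start.

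EIF4A3 and EIF4E2 were the EIF4 genes in the Flag list. EIF4A3 encodes the helicase core of the exon junction complex, which is laid down on spliced mRNA in the nucleus. Its Flag peak (chr17:80147397-80147591) had a summit 360 bp upstream of the start, with 14 reads (7.65 to 23.5) over 2.67 and a fold enrichment of 4.09. EIF4E2 encodes a cap-binding protein that represses translation of its targets. The Flag peak at its start (chr2:232550279-232550783) had 10 reads (4.80 to 18.4) over 2.27 and a fold enrichment of 3.37. Its summit lay 129 bp upstream of the EIF4E2 start, but 3 bp from the end of TIGD1, a gene derived from a transposase. It also lay inside the microRNA gene MIR5001, 13 bp from its end. A second Flag peak lay 8250 bp inside EIF4E2 (fold enrichment 3.16, 8 reads, 3.45 to 15.8). Neither gene had a VCP summit within 100 kb of an end: the nearest lay 107644 bp from EIF4A3 and 836965 bp from EIF4E2.

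The 131 bases between TIGD1 and EIF4E2 (chr2:232550558-232550688, plus strand, GRCh38.p14, from RefSeq) are all that separates these protein-coding genes, with the Flag summit 3 bases from the TIGD1 side. The first 16 printed bases belong to MIR5001.
EIF4E2: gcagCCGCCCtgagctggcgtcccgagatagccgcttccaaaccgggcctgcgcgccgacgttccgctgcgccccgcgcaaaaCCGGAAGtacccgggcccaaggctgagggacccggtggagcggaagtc
Capitals mark a reversed Sp1 box from -127 to -122, which starts beside the summit at -129, and an ETS core (CCGGAAG) from -48 to -42. The Sp1 box is in 58.3% and the ETS core in 14.2% of the promoters of all protein-coding genes.

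No other EIF4 gene was marked. This held for the cap-binding genes EIF4E, EIF4E1B and EIF4E3, the scaffold genes EIF4G1, EIF4G2 and EIF4G3, the eIF4E-binding proteins EIF4EBP1, EIF4EBP2 and EIF4EBP3, and for EIF4B, EIF4H and EIF4ENIF1. EIF4A1, the main helicase gene of the complex, had a Flag summit 4669 bp beyond its end, with a fold enrichment of 3.24. This summit lay within 1 kb of an end of another protein-coding gene. The nearest VCP summit to EIF4A1 was 242513 bp away. Of the 3 EIF4A helicase genes, EIF4A2 was thus marked by VCP alone, EIF4A3 by Flag alone and EIF4A1 by neither. Over all protein-coding genes 2.34% were marked by VCP, 11.7% by Flag and 0.987% by both. A difference between these 3 genes was not tested.

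Among the 14 EIF3 genes, EIF3A and EIF3B, which encode core subunits of the complex, had Flag peaks. EIF3B had the stronger one (chr7:2354323-2354877), with 17 reads (9.90 to 27.2) over 1.85, a fold enrichment of 6.32 and rank 92 of 5692 by -log10 q. The summit was 113 bp upstream of the EIF3B start listed by RefSeq, although it lay 628 bp inside the outer end of the gene row, which begins further upstream. SNX8, another sorting nexin gene, overlaps that outer part, and its end was 217 bp from the summit. At EIF3A the Flag peak (chr10:119081379-119081695) had its summit 602 bp outside the gene, with 10 reads (4.80 to 18.4) over 2.30 and a fold enrichment of 3.34. A second Flag summit with 13 reads (6.92 to 22.2) and a fold enrichment of 4.18 lay 3033 bp beyond the opposite end of EIF3A. EIF3D had a Flag summit 3911 bp outside the gene (fold enrichment 2.69), and the other 11 EIF3 genes had no summit of either list within 10 kb of an end. The second EIF3A summit and the EIF3D summit each lay within 1 kb of an end of another protein-coding gene. No EIF3 gene had a VCP summit within 10 kb.

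EIF1B and EIF1AD were the marked genes among the remaining 11, both by Flag alone. EIF1B, a close relative of the start codon selection factor EIF1, had a Flag peak across its start (chr3:40309526-40309858), with the summit 81 bp downstream. It had 14 reads (7.65 to 23.5) over a background of 4.08 and a fold enrichment of 2.95. A long non-coding RNA gene, EIF1B-AS1, ends 8 bp before EIF1B begins, and its end was 90 bp from the summit. EIF1AD encodes a nuclear protein with a domain like that of eIF1A. Its Flag peak (chr11:66002209-66002407) had a summit 195 bp upstream of its start and 151 bp from BANF1, which encodes a DNA-bridging protein of the nuclear envelope. It had 16 reads (9.15 to 26.0) over a background of 5.44 and a fold enrichment of 2.64. EIF1AD thus had more reads at its summit than EIF3A but a lower fold, over a background that was more than the Flag median of 2.27 reads at gene ends. By fold, 5.02% of the Flag list lay below the EIF1AD peak.

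The EIF1AD stretch is shown as the example of a weak Flag peak between genes that face away from each other. These are the 250 bases before the EIF1AD start (chr11:66002158-66002407, minus strand, GRCh38.p14, from RefSeq), and all lie in the 345 bp between EIF1AD and BANF1.
EIF1AD: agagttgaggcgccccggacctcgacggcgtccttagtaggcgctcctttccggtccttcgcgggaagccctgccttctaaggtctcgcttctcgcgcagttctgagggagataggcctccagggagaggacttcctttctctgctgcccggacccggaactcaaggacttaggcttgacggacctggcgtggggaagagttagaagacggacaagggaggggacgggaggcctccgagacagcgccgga
None of the searched motifs lies wholly within these letters, so none is in capitals. The ETS core of this promoter runs from -5 to 1 and thus across the start site itself.

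EIF1, EIF1AX, EIF1AY, EIF5, EIF5A, EIF5A2, EIF5AL1, EIF5B and EIF6 had no peak at an end. EIF5A, a factor that frees stalled ribosomes, had a VCP summit 17313 bp and a Flag summit 39528 bp from a gene end. EIF1AX lay far from both lists, at 5754076 bp from a VCP summit and 3766281 bp from a Flag summit. Neither list had a peak on chromosome Y, where EIF1AY lies.

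**Figure D2:**
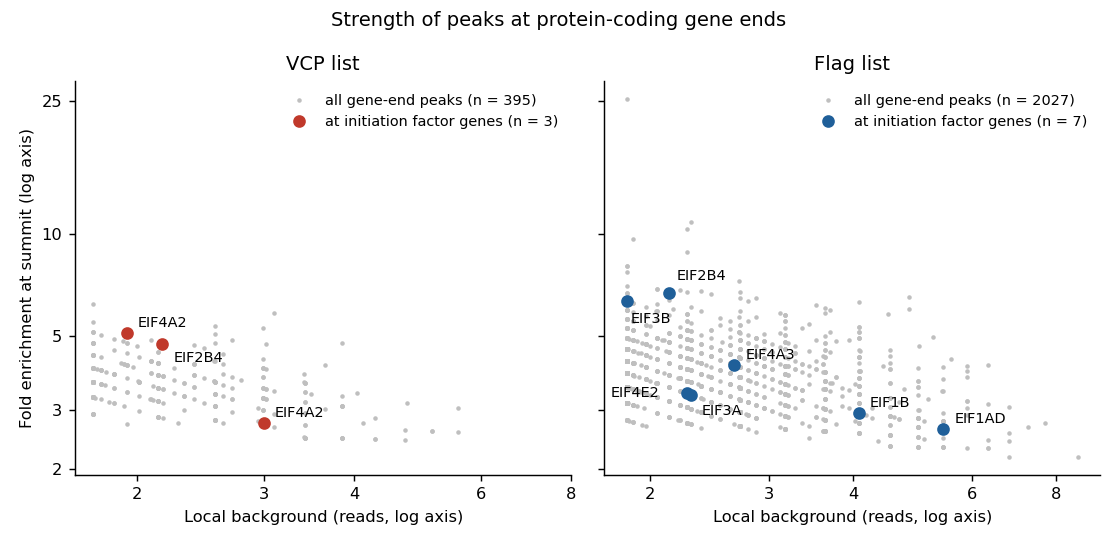
Fold enrichment against local background in reads, both on log axes, for all peaks at protein-coding gene ends (grey) and for those at initiation factor genes (coloured, labelled), with the VCP list at left and the Flag list at right. EIF2B4 and EIF3B stand near the upper edge of the Flag points at low background, and EIF1AD at the lower right with a fold of 2.64 over 5.44 reads.

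The marked genes differed in strength. In the Flag list EIF2B4 (fold enrichment 6.70), EIF3B (6.32) and EIF4A3 (4.09) reached a q of at most 0.05, while EIF4E2, EIF3A, EIF1B and EIF1AD lay between 2.64 and 3.37 and did not. Across the 7 Flag peaks the median fold was 3.37, against 3.67 for all Flag peaks at gene ends, of which 45.1% reached that q. In the VCP list 2 of the 3 peaks reached it, 1 at EIF2B4 and 1 at EIF4A2, where 11.6% of all VCP peaks at gene ends did. Counted by gene with such peaks alone, 2 of 56 initiation factor genes were marked by VCP against 0.272% of all protein-coding genes, and 3 of 56 by Flag against 5.53%. With 2 genes, in a family chosen with earlier results of these data known, this VCP share is a description and was not tested.

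Overlap between the lists was counted in the same way for the family and for all genes. Of the 3 VCP peaks at initiation factor genes 1 overlapped a Flag peak, where 32.4% of all VCP peaks at gene ends did. In the Flag list 1 of the 7 peaks overlapped a VCP peak, against 6.27%. As a share of genes, 1 of the 2 VCP-marked and 1 of the 7 Flag-marked initiation factor genes (14.3%) were marked in both. Over all protein-coding genes these shares were 42.2% and 8.40%. Each share of the family rests on 1 gene.

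**Figure D3:**
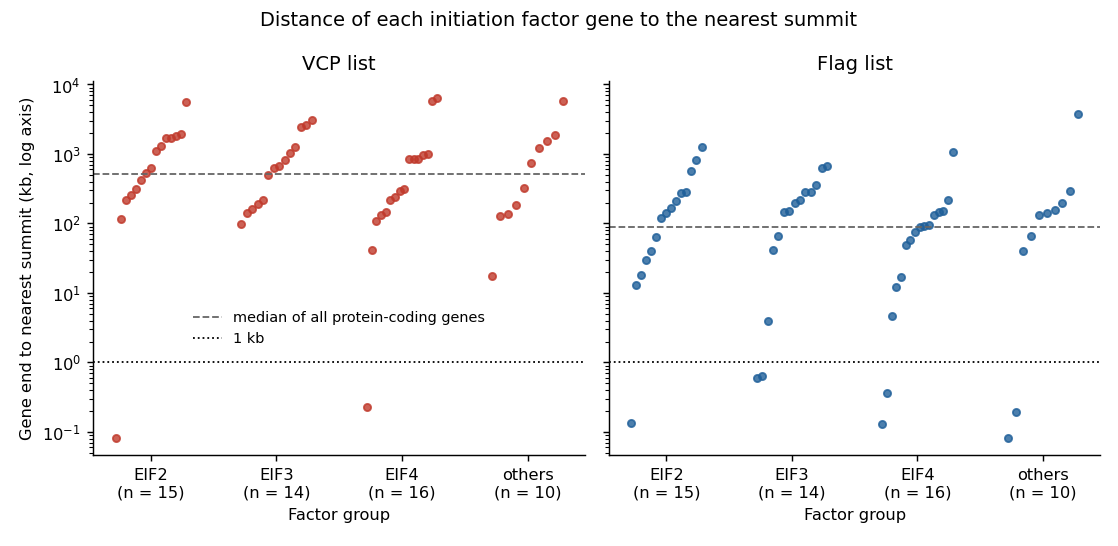
Distance from each initiation factor gene to the nearest summit in kb on a log axis, by factor group, with the VCP list at left and the Flag list at right; each dot is 1 gene, the dashed line is the median of all protein-coding genes and the dotted line is 1 kb. The dots under 1 kb are the marked genes, and EIF1AY is left out because its chromosome had no peak.

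Distances to the nearest summit were taken over the whole family, the marked genes included. The nearest VCP summit lay a median of 631.6 kb from the ends of an initiation factor gene (n = 55), against 516.8 kb for all protein-coding genes on chromosomes with peaks. For Flag the medians were 130.9 kb and 89.0 kb. Within 10 kb of an end, 2 initiation factor genes had a VCP summit (3.64%, against 4.48% of all genes) and 9 had a Flag summit (16.4%, against 20.2%). Both VCP genes and 7 of the 9 Flag genes were the marked ones. EIF4A1 and EIF3D were the others, through Flag summits at the ends of other protein-coding genes. In the bodies, over 1 kb from both ends, 0 of the 56 genes had a VCP summit and 2 had a Flag summit (EIF2B3 and EIF4E2, 3.57%), against 2.35% and 6.75% of all protein-coding genes. With so few genes, these counts do not set the family apart from other genes.

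Where a strand was listed, every peak at an initiation factor gene stood at the 5′ end: 3 of 3 for VCP and 6 of 6 for Flag, with EIF3A left out. Over all protein-coding genes, 89.5% and 92.5% of peak and gene pairs stood at the 5′ end alone. The Flag summits lay upstream of the start at EIF2B4, EIF4E2, EIF3B, EIF1AD and EIF4A3 and downstream at EIF1B, and 57.2% of all Flag pairs lay upstream. Of the 6 Flag-marked genes with a listed start, 4 had another protein-coding gene close to their 5′ end. Either end of that gene counted, on any strand, so not every such place is a shared promoter. Such a gene had an end within 1 kb of the 5′ end for 12 of the 47 initiation factor genes with a listed start, and 4 of these 12 had a Flag peak (EIF2B4 with SNX17, EIF4E2 with TIGD1, EIF3B with SNX8 and EIF1AD with BANF1). Of the 35 without such a neighbour 2 did (EIF1B and EIF4A3). Over all protein-coding genes these shares were 20.9% with a neighbour and 10.3% without. In the VCP list 1 of the 12 (EIF2B4) and 1 of the 35 (EIF4A2) were marked, against 3.61% and 2.13% of all protein-coding genes. When each peak was counted only for the gene with the nearest end, EIF4E2, EIF3B and EIF1AD passed to their neighbours and 4 Flag-marked genes were left. For EIF3B this rests on its outer end, 628 bp from the summit. Its listed start, 113 bp away, was nearer than the end of SNX8 at 217 bp.

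**Figure D4:**
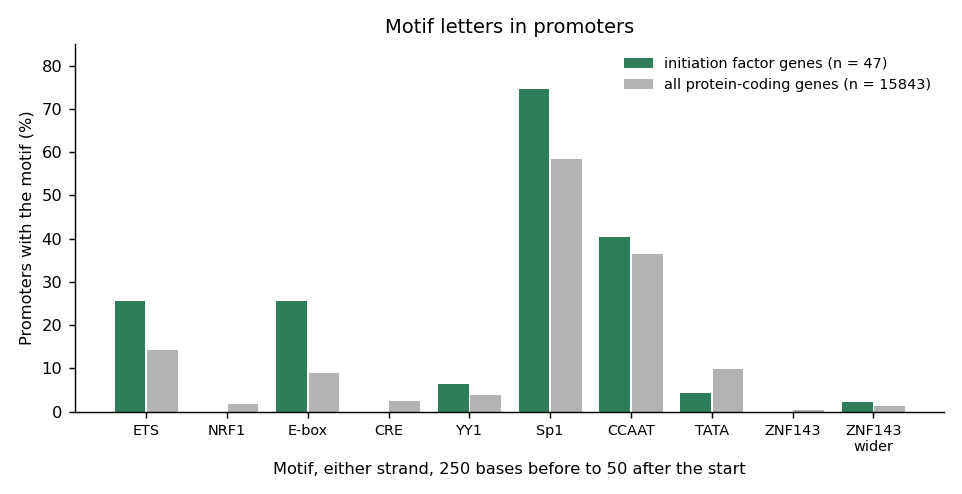
Share of promoters, in percent, that hold each motif on either strand, for 47 initiation factor genes (green) and 15843 protein-coding genes (grey). The E-box bars are at 25.5% and 8.82% and the ETS bars at 25.5% and 14.2%, and the last pair is the wider ZNF143 pattern that was added after the EIF2B4 letters were read.

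The promoters of the family were also read as letters, over 300 bases from 250 before to 50 after the start, for the 47 genes with an entry in the RefSeq table. CACGTG, the E-box that MYC and related factors bind, was in 12 of the 47 (25.5%), against 8.82% of all 15843 protein-coding promoters. The E-box genes were spread over the factor groups. They were EIF2AK2, EIF2B3, EIF3F, EIF3K, EIF4E, EIF4EBP3, EIF4G1, EIF4B, EIF4H and EIF5A2, and EIF1B and EIF4A3 among the marked genes. CCGGAAG, an ETS core, was also in 12 (25.5%, against 14.2%), with EIF4E2 and EIF1AD among the marked. GGGCGG, the Sp1 box, was in 35 (74.5%, against 58.3%) and in 5 of the 7 marked genes with an entry. CCAAT was in 19 (40.4%, against 36.4%) and AAGATGGC, a YY1 core, in 3 (6.38%, against 3.86%). TGACGTCA (the cyclic AMP element) and those of the palindromic NRF1 site and of a strict ZNF143 core were in 0 of the 47, against 2.56%, 1.77% and 0.372%. Matches of different motifs did not overlap in the stretches printed above. No motif was common to all 7 marked genes, and a match is only a match of letters. The family's promoters had a median of 64.3% G and C (47.7% to 75.7%), and all protein-coding promoters had 62.7%. Places with C directly before G differed more, with a median of 28 (5 to 45) per family promoter and 22 (0 to 69) per protein-coding promoter. The E-box, the ETS core and the Sp1 box each contain such a place. Whether this composition accounts for their higher shares in the family was not tested.

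Other genes of translation gave a frame for these counts. The lists cover 52 genes, of which 2 had a VCP peak (3.85%) and 11 a Flag peak (21.2%), against 2.34% and 11.7% of all protein-coding genes. The counts of single lists below are to be read against the same shares, and none was tested. Elongation factor genes had a Flag peak at 4 of 9. EEF1A1, which delivers aminoacyl-tRNA to the ribosome, had 29 reads (19.4 to 41.7) over a background of 6.35 and a fold enrichment of 4.08. EEF1D, EEF1B2 and EEF2K followed with folds of 3.41, 4.04 and 2.75. The EEF1D peak was shared with the gene TIGD5 and the EEF1B2 peak with NDUFS1. Among partners of initiation 2 of 17 had a Flag peak, the poly(A)-binding protein genes PABPC1 (fold enrichment 4.66, 27 reads, 17.8 to 39.3) and PABPC4 (5.16). PABPC1 also had an overlapping VCP peak with a fold of 3.14. ATF4, the transcription factor translated when eIF2 is phosphorylated, was the 1 of 9 eIF2 signalling genes with a Flag peak (3.77, 25 reads, 16.2 to 36.9). MLST8 (4.96) and RPTOR (2.64), subunits of the TOR complex that acts on the eIF4E-binding proteins, were the 2 of 9 in TOR signalling. The release factor gene ETF1 (3.62) was the 1 of 6 in termination and recycling. MTIF3, 1 of 2 mitochondrial initiation factor genes, had overlapping peaks in both lists, with folds of 2.49 for VCP and 3.29 for Flag. Neither MTIF3 peak reached a q of at most 0.05 (-log10 q of 0.0545 and 1.00), nor did the VCP peak at PABPC1 (0.697). Of the other Flag peaks in these lists, those at EEF2K (0.212) and RPTOR (0.699) did not reach it, and the rest did. The elongation, termination, eIF2 and TOR lists had 0 genes with a VCP peak.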

How the data were processed

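The 3 samples were 1 VCP library, 1 Flag library and 1 input library of HCT116 cells expressing Flag-tagged VCP. Chromatin was fixed with 1% formaldehyde (10 minutes) and cut with micrococcal nuclease, per the labels' protocols, and 10 ng of DNA went into each library, with 8 cycles of amplification and selection of 250 to 450 bp. Tools named in the submitters' processing notes were MACS2 2.1.0, Bowtie 1.1.2, Trimmomatic 0.33 and bcl2fastq 2.17, with the build hg38. Settings, and whether the input served as control, are not stated there.

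The deposited peak lists (1816 VCP and 5719 Flag peaks, 1803 and 5692 of them on chromosomes) give per peak the authors' fold enrichment, a ratio of summit to local background. They also give the authors' -log10 of p and of q, and a deposited score that was not used. The lowest -log10 p was 3.00 in both lists. Reads at a summit were taken as the whole number whose Poisson tail matched the -log10 p within 0.001, with fold as reads over background and a pseudocount of 1 added to each. All peaks on chromosomes matched.

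Genes came from the RefSeq table of GRCh38.p14, with 58961 of 59792 rows kept on chromosomes. Start sites and strands came from the RefSeq promoter table, taking the most upstream entry, for 47 of the 56 initiation factor genes and 15843 protein-coding genes. Motifs were searched as exact letters on both strands. Exons were not read, so a summit is placed by gene and start only. Python 3.11.15 with pandas 2.3.3 and scipy 1.17.1 was used. On simulated data, all of 497 read numbers, 200 gene-end assignments and 100 overlaps came out as planted.

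The members, gene lists and motifs were chosen with earlier results of these data known. Every member with a summit within 1 kb of an end was named, and up to 4 genes of each other translation list by -log10 q. With 1 library per antibody no test was run. Alternatives were stricter q thresholds, other windows, other overlap rules, any base of the peak in place of its summit, counting each peak for 1 gene, start sites alone, and equal list sizes.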

Additional observations from a re-analysis of the deposited data

How the results depend on the processing

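The count of 7 initiation factor genes with a Flag peak (12.5%, against 11.7% of all protein-coding genes) fell most under 4 alternatives, and so did the share of all genes. It was 3 with a q of at most 0.05 (EIF2B4, EIF3B and EIF4A3, 5.36% against 5.53%) and 2 at -log10 q of at least 3 (EIF2B4 and EIF3B, 3.57% against 2.37%). It was 4 when each peak was counted for the nearest gene (7.14% against 9.87%), and 3 with as many Flag as VCP peaks kept, by -log10 p (5.36% against 5.33%). Under the threshold of 3 on -log10 q, the counts of genes with a VCP peak and of genes in both lists were 0, and so were the counts of VCP and of Flag peaks that overlap the other list. Of all protein-coding genes, 0.0554% had a VCP peak there. The Flag count was 5 with a window of 500 bp (8.93% against 9.9%) and stayed at 7 with a window of 3 kb and with any base of the peak. With start sites alone it was 6 of 47 genes (12.8% against 11.8%). Under all alternatives but the threshold of 3, the VCP count stayed at 2 genes. The count in both lists and both overlap counts stayed at 1 there. No paired analysis was possible because each antibody had 1 library. The peaks at initiation factor genes rest on 8 to 20 reads, which limits the values given for each.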

Other observations

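Non-coding relatives of the family were looked at apart from the 56 genes. Of 87 EIF pseudogenes, leaving out 2 that are transcribed, 2 had a VCP summit and 1 a Flag summit within 1 kb of an end (EIF2S3P1, EIF4A2P3 and EIF3FP1 in all), where 0.162% and 0.402% of all 15416 such pseudogenes did. Of 7 long non-coding RNA genes named for the family, 1 had a Flag summit, EIF1B-AS1, through the peak it shares with EIF1B, against 4.11% of all 18010 long non-coding RNA genes. These counts were not tested.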
